A study of Mus musculus with 12 samples.

Results

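The genes described here are the kappa light chain constant gene Igkc and 7 genes of the mouse lambda light chain locus: the constant genes Iglc1, Iglc2, Iglc3 and Iglc4 and the variable genes Iglv1, Iglv2 and Iglv3. They are 8 of 43613 named items in the deposited expression tables and occupy 10 of 506504 loci, because Iglc2 and Iglv2 each have 2 loci. They were picked by symbol with earlier results of these data in view, and Iglc4 was picked for its loss in germinal centre (GC) libraries. Differences between GC and non-GC cells are therefore given as a description without a test, also for the other genes named.

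RNA was sequenced from splenic B cells of female mice aged 6 months on a C57BL/6 background, all of them carrying the lupus susceptibility interval Sle1b. The 4 groups were GC B cells from mice labelled B6.Sle1b.IFNaR1-/-, GC B cells from B6.Sle1b mice, non-GC B cells from B6.Sle1b.IFNaR1-/- mice and non-GC B cells from B6.Sle1b mice, with 3 libraries each, 1 per batch. IFNaR1 is part of the receptor through which cells sense type I interferon. GC cells were sorted as B220+GL7+CD95+ and non-GC cells as B220+GL7-CD95-. The labels do not tie the libraries to separate animals, so a p-value covers only sample-to-sample spread, possibly all of it technical. Values below are the authors' FPKM (fragments scaled to transcript length and library depth), and the values of a group stand in the order of batches 1, 2 and 3. The authors normalized each table separately, within a batch, so a level set beside that of another batch comes from a separately normalized table.

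The targeted gene Ifnar1 was listed at 14.1, 15.4 and 0 FPKM in the Ifnar1KO-labelled GC libraries, against 8.12, 9.89 and 6.8 FPKM in Sle1b GC libraries. In non-GC libraries it was at 51.2, 69.1 and 2.58 FPKM in those labelled Ifnar1KO, against 14.6, 36.1 and 3.45 FPKM in Sle1b. In batches 1 and 2 its level goes against the label. Each value is 1 level for the gene without the positions of the reads. It therefore does not show whether the deleted part was transcribed. The genotype is therefore written as labelled throughout.

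A B cell makes its antigen receptor from a heavy chain and 1 kind of light chain, either kappa or lambda. The mouse lambda locus is small: its few variable genes join to neighbouring joining and constant genes, so that Iglv1 is mostly used with Iglc1 or Iglc3 and Iglv2 mostly with Iglc2. Iglc4 lies next to a joining segment that is known as defective in common laboratory strains. In germinal centres, B cells mutate their rearranged variable genes, while the constant genes are largely spared.

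In GRCm38, Igkc lies on chromosome 6 at chr6:70726435-70726966 on the plus strand, per GENCODE M21. The lambda genes lie on the minus strand of chromosome 16, in the order of transcription Iglv2 (chr16:19260401-19260859), Iglv3 (chr16:19241207-19241690), Iglc2 (chr16:19198396-19200351), Iglc4 (chr16:19194999-19195312), Iglv1 (chr16:19085017-19085500), Iglc3 (chr16:19065230-19065681) and Iglc1 (chr16:19061618-19062071). The first 120 coding bases of the 4 lambda constant exons (from base 2 in Iglc2, to align it) are shown because the values rest on telling these genes apart. Capitals mark the 40 positions at which the 4 sequences are not all equal.
Iglc1: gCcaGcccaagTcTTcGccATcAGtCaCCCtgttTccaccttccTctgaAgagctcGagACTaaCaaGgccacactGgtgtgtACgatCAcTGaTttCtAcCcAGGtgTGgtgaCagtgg
Iglc2: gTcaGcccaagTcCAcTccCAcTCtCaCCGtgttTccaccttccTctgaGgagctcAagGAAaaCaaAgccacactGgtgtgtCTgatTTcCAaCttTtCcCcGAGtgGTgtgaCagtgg
Iglc3: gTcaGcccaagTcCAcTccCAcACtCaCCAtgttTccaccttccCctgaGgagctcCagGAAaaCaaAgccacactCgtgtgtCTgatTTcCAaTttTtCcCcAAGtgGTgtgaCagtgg
Iglc4: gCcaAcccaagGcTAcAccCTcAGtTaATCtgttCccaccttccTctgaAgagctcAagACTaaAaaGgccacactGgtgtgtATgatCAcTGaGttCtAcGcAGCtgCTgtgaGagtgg

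Iglc4 is nearest to Iglc1, with 84.9% of alignment columns equal over the coding exon, and shares no stretch of 50 bases with Iglc1, Iglc2 or Iglc3. Iglc2 and Iglc3 are 96.2% identical and share 14.3% of their 50-base stretches, so reads can pass between these 2 genes. Iglv1 and Iglv2 are 96.9% identical and share 25.2% of such stretches, whereas Iglv3 is 58.3% identical to Iglv1. The last 90 coding bases of Iglv1 and Iglv2 are shown with the 3 positions at which they differ in capitals.
Iglv1: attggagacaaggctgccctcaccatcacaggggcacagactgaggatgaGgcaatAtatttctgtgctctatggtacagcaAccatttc
Iglv2: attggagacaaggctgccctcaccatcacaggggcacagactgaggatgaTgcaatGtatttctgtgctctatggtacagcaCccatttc

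In GRCm38, the stretches of the constant exons lie on the minus strand at chr16:19061952-19062071 (Iglc1), chr16:19198733-19198852 (Iglc2), chr16:19065562-19065681 (Iglc3) and chr16:19195193-19195312 (Iglc4), and those of the variable genes at chr16:19085017-19085106 (Iglv1) and chr16:19260401-19260490 (Iglv2). A second locus named Iglc2 and a second named Iglv2 sit in a run of loci whose named neighbours are annotated on the opposite strand, 40 of 45 and 41 of 45 of them on the plus strand. No source used here says that the kit keeps strand, so reads of a gene and of an antisense partner cannot be told apart. These loci are summed with the main loci unless stated.

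Batch 3 stood apart before any comparison. The summed level of 8 B cell markers was 22.1 FPKM in the Ifnar1KO-labelled GC library and 19.8 FPKM in the Sle1b GC library of batch 3, and 1133 to 2042 FPKM in the 4 GC libraries of batches 1 and 2. In non-GC libraries it was 167 FPKM (Ifnar1KO) and 204 FPKM (Sle1b) in batch 3, and 2146 to 2474 FPKM in the other 4. The summed level of 10 germinal centre markers separated the sorts in batches 1 and 2, at 348 to 1056 FPKM in GC and 54.2 to 93.7 FPKM in non-GC libraries, but not in batch 3, at 18.7 FPKM (Ifnar1KO) and 23.7 FPKM (Sle1b) in GC against 20.7 FPKM (Ifnar1KO) and 21.8 FPKM (Sle1b) in non-GC libraries. The cytoskeletal transcript Actb was low there too, with 11.5 and 5.78 FPKM in the batch 3 GC libraries labelled Ifnar1KO and Sle1b. Levels of the 8 genes are therefore given by batch, whereas fitted differences and medians cover all batches. Fewer cells of a type and less RNA per cell cannot be told apart in these bulk libraries.

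Igkc was the most abundant light chain gene in each of the 12 libraries. Its level was 2627, 2086 and 70.6 FPKM in Ifnar1KO-labelled GC libraries, 3151, 2158 and 35.5 FPKM in Sle1b GC, 3729, 2247 and 541 FPKM in Ifnar1KO-labelled non-GC and 3052, 3149 and 734 FPKM in Sle1b non-GC. In batches 1 and 2 the GC and non-GC ranges overlapped, and only batch 3 showed a gap between GC and non-GC. Igkc was lower in GC in 3 of 3 batches among Ifnar1KO-labelled libraries and in 2 of 3 among Sle1b libraries. The ratio of Igkc to Actb stayed within 3.66 to 7.28 in all 12 libraries, and in batch 3 it was 6.13 and 6.14 in the GC libraries labelled Ifnar1KO and Sle1b, against 4.93 and 6.09 in the non-GC libraries labelled Ifnar1KO and Sle1b.

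Iglc1 stood at 234, 339 and 0 FPKM in Ifnar1KO-labelled GC libraries, 373, 340 and 11.4 FPKM in Sle1b GC, 370, 366 and 109 FPKM in Ifnar1KO-labelled non-GC and 288, 424 and 64.1 FPKM in Sle1b non-GC. As for Igkc, GC and non-GC libraries overlapped in batches 1 and 2. On a locus of the annotated length of Iglc1, 454 bases, 1 read was worth 0.455 to 1.43 FPKM across the libraries. Iglc1 thus rested on 236 to 814 reads in batches 1 and 2 and on 11 reads in the Sle1b GC library of batch 3. If the 0 in the Ifnar1KO-labelled GC library of that batch is a count of 0, it allows up to 1.66 FPKM.

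Iglc3 differed more between the cell types. It was at 185, 115 and 0 FPKM in Ifnar1KO-labelled GC libraries and 245, 204 and 0 FPKM in Sle1b GC, and at 716, 461 and 17.3 FPKM in Ifnar1KO-labelled non-GC and 579, 595 and 69.0 FPKM in Sle1b non-GC. Within every batch the GC library was below the non-GC library of its genotype. The log2 difference of GC from non-GC, on log2(FPKM + 1), was -1.95, -1.99 and -4.27 in Ifnar1KO-labelled libraries and -1.24, -1.54 and -6.04 in Sle1b libraries.

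Iglc2, which shares most of its sequence with Iglc3, followed the same order. It was at 76.9, 25.4 and 0.0909 FPKM in Ifnar1KO-labelled GC libraries, 73.3, 100.5 and 0.265 FPKM in Sle1b GC, 218, 189 and 16.8 FPKM in Ifnar1KO-labelled non-GC and 219, 212 and 22.4 FPKM in Sle1b non-GC. The lower GC value held in 3 of 3 batches of both genotypes. The locus in the run of the other strand contributed 10.1 of the 25.4 FPKM in the Ifnar1KO-labelled GC library of batch 2 and 12.2 of the 100.5 FPKM in the Sle1b GC library of that batch.

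Iglc4 was listed at 0 FPKM in all 6 GC libraries and at 8.94 FPKM or more in all 6 non-GC libraries. It was at 22.2, 36.2 and 48.5 FPKM in Ifnar1KO-labelled non-GC libraries and 10.5, 8.94 and 30.7 FPKM in Sle1b non-GC libraries. Among 14608 items with at least 1 FPKM in at least 3 libraries, Iglc4 was the only one listed at 0 in all 6 GC libraries and at 1 FPKM or more in all 6 non-GC libraries, a pattern looked for after its values were seen. The 8 genes all passed that filter, Iglc4 through its 6 non-GC libraries alone. Since Iglc4 was chosen for this pattern, no fold and no test is given for it between the cell types.

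The absolute numbers behind Iglc4 are small. Unnamed loci of about its 314 annotated bases gave values in steps of 0.92 to 2.80 FPKM per read, and 82.4% to 100% of low values were within 0.15 of a whole read. On that scale Iglc4 had about 24, 22 and 31 reads in Ifnar1KO-labelled non-GC libraries and about 9, 7 and 21 reads in Sle1b non-GC libraries. A count of 0 in the GC libraries would allow up to 3.43 to 8.39 FPKM (3 reads), and the exact 95% Poisson upper bounds of 0 reads were 4.21 to 10.3 FPKM. The lowest non-GC value, 8.94 FPKM, had an exact Poisson interval of 3.57 to 18.3 FPKM, so these ranges overlap. The length of the authors' assembled locus may differ from the annotated one, which would change the read numbers in proportion in every library. These limits cover counting error only.

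Relative to Iglc1, its nearest relative by sequence, Iglc4 was at 6.0%, 9.89% and 44.6% in Ifnar1KO-labelled non-GC libraries and 3.64%, 2.11% and 48.0% in Sle1b non-GC libraries. The limit in GC cells was 1.96% and 2.48% in batches 1 and 2 of the Ifnar1KO-labelled libraries and 1.53% and 1.25% in those of Sle1b. The non-GC ratio of 2.11% rested on about 7 reads, and the ratios are given without intervals. By exact 95% Poisson bounds, Iglc4 levels overlapped between the cell types in Sle1b batches 1 and 2. The bounds reached 7.05 and 5.2 FPKM in GC and began at 4.65 and 3.57 FPKM in non-GC cells. For Ifnar1KO-labelled libraries they reached 5.64 and 10.3 FPKM in GC and began at 14.1 and 22.7 FPKM in non-GC cells. As Iglc4 was chosen for its GC values, no difference in ratio is read. In batch 3 the limit was 54.5% in the Sle1b GC library, above the non-GC ratio of 48.0%, so a lower ratio was not detectable there. Iglc1 itself was listed at 0 in the Ifnar1KO-labelled GC library of batch 3.

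Batch 3 also set Iglc4 apart from the other genes in non-GC cells. Its level there was the highest of the 3 batches in both genotypes, whereas those of Igkc, Iglc1, Iglc2, Iglc3, Iglv1, Iglv2 and Iglv3 were the lowest. Of the 14608 items, 11.5% were likewise highest in batch 3 in the non-GC libraries of both genotypes. What this rise rests on was not tested.

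**Figure D1:**
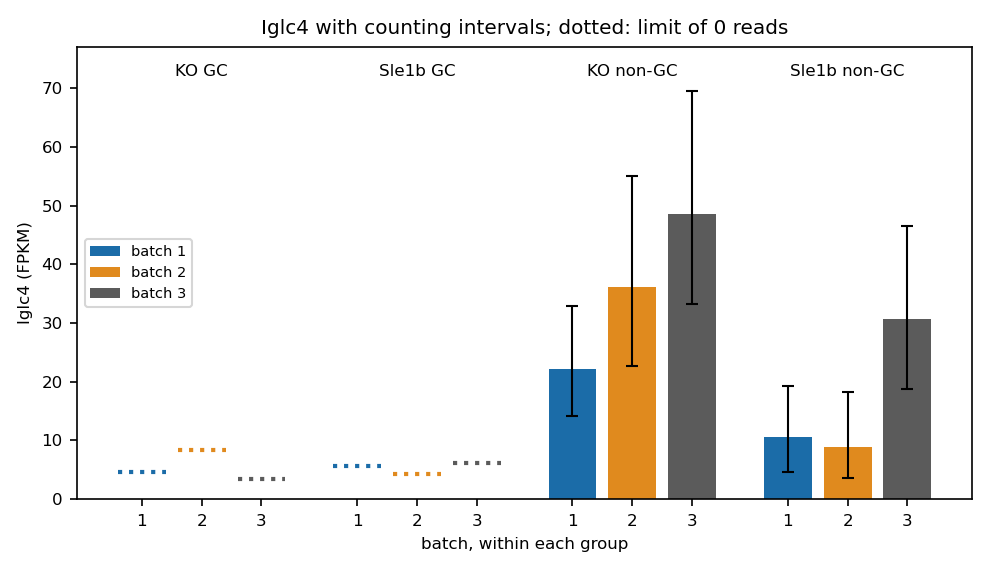
FPKM of Iglc4 (vertical axis) in each library, by group (KO, labelled Ifnar1KO) and batch; error bars are exact 95% Poisson intervals on the estimated reads, and dotted lines mark the limit that 0 reads allow. All 6 GC libraries are at 0, with limits of 3.43 to 8.39 FPKM, and the 6 non-GC libraries lie between 8.94 and 48.5 FPKM.

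The variable genes were lower than the constant genes and less even. Iglv1, the gene most used with Iglc1 and Iglc3, was at 24.5, 19.5 and 1.39 FPKM in Ifnar1KO-labelled GC libraries, 30.4, 18.5 and 0.338 FPKM in Sle1b GC, 99.1, 41.3 and 0.182 FPKM in Ifnar1KO-labelled non-GC and 77.7, 61.7 and 0.607 FPKM in Sle1b non-GC. In batches 1 and 2 the highest GC value, 30.4 FPKM, was below the lowest non-GC value, 41.3 FPKM. All batch 3 values corresponded to about 2 reads or fewer on the annotated length. Some came out at a fraction of a read, such as 0.2 in the Ifnar1KO-labelled non-GC library, so that length is only a rough guide there. The ratio of Iglv1 to Iglc1 was 0.105 and 0.0576 in batches 1 and 2 of Ifnar1KO-labelled GC libraries and 0.0816 and 0.0544 in those of Sle1b GC, against 0.268 and 0.113 in Ifnar1KO-labelled non-GC and 0.27 and 0.145 in Sle1b non-GC.

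Iglv2 had 2.90, 5.78 and 0 FPKM in Ifnar1KO-labelled GC libraries, 48.3, 12.2 and 0.207 FPKM in Sle1b GC, 39.9, 23.4 and 0.709 FPKM in Ifnar1KO-labelled non-GC and 20.1, 47.9 and 0.956 FPKM in Sle1b non-GC. The Sle1b libraries gave no single direction between cell types, with GC above non-GC in batch 1 and below it in batches 2 and 3. In batch 2 of the Ifnar1KO-labelled libraries, the locus in the run of the other strand contributed 5.62 of the 5.78 FPKM in GC. It contributed 14.0 of the 23.4 FPKM in non-GC. On the main locus alone, batch 3 gave 0.207 FPKM in Sle1b GC against 0.0491 FPKM in Sle1b non-GC. Both Ifnar1KO-labelled libraries of batch 3 were listed at 0 on it.

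Iglv3 was listed at 0 in all 3 Ifnar1KO-labelled GC libraries and at 36.0, 1.96 and 0 FPKM in Sle1b GC, and was at 81.1, 83.9 and 0 FPKM in Ifnar1KO-labelled non-GC and 38.4, 30.8 and 0 FPKM in Sle1b non-GC. It was listed at 0 throughout batch 3. In batches 1 and 2 it was thus higher in Ifnar1KO-labelled than in Sle1b non-GC cells. In GC cells of these batches it was listed lower in Ifnar1KO-labelled than in Sle1b libraries. If the Ifnar1KO-labelled 0 of batch 2 is a count of 0, it allows up to 5.8 FPKM (3 reads). That is above 1.96 FPKM, so a lower value was not detectable in GC cells of batch 2. The Sle1b GC value of batch 2 corresponded to about 2 reads.

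**Figure D2:**
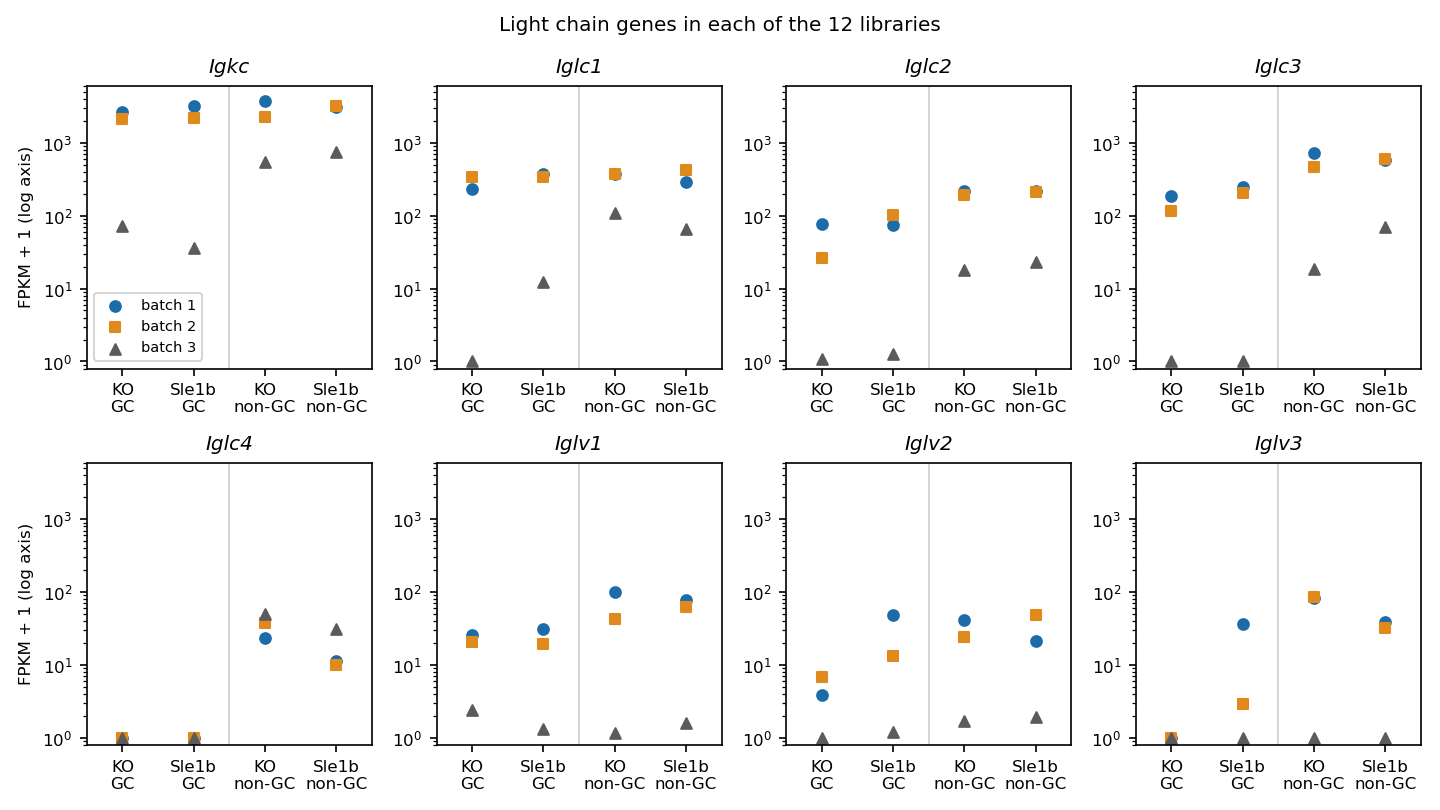
FPKM plus 1 on a log axis for each of the 8 genes in the 12 libraries; marker shape and colour give the batch, and a point at 1 is a value of 0. Iglc4 is at 0 in every GC library, and the batch 3 points lie lowest in the non-GC libraries for every gene but Iglc4.

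Over the 8 genes, the GC value was below the non-GC value in all 3 batches for 6 genes in Ifnar1KO-labelled libraries (Igkc, Iglc1, Iglc2, Iglc3, Iglc4 and Iglv2), where the same held for 19.2% of all items tested, and for 4 genes in Sle1b libraries (Iglc2, Iglc3, Iglc4 and Iglv1), where it held for 14.2%. No gene of the 8 was higher in GC in all 3 batches, against 3.86% of all items in Ifnar1KO-labelled libraries and 8.02% in Sle1b libraries. The median fitted log2 difference was -2.65 over the 8 genes and -0.40 over all items in Ifnar1KO-labelled libraries, and -1.45 and -0.11 in Sle1b libraries. With genes listed at 0 in every GC library of a genotype set to the limit of 3 reads, the medians over the 8 genes were -2.53 in Ifnar1KO-labelled and -1.29 in Sle1b libraries. On its main locus alone, Iglv2 was listed at 0 in both Ifnar1KO-labelled libraries of batch 3. Because the choice of genes used the contrast of GC with non-GC, nothing is read from these counts.

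The lambda share was taken within each library as Iglc1, Iglc2 and Iglc3 over their sum plus Igkc, a ratio that the normalization of a table does not touch. It was 15.9%, 18.7% and 0.129% in Ifnar1KO-labelled GC libraries, 18.0%, 23.0% and 24.7% in Sle1b GC, 25.9%, 31.1% and 20.9% in Ifnar1KO-labelled non-GC and 26.2%, 28.1% and 17.5% in Sle1b non-GC. In batches 1 and 2 every GC library was below every non-GC library. In batch 3 the Sle1b pair went the other way, with a share of 24.7% in GC and 17.5% in non-GC cells. The Ifnar1KO-labelled GC library of batch 3 had a lambda sum of 0.0909 FPKM beside 70.6 FPKM of Igkc. That sum came only from the second Iglc2 locus, in the run of the other strand. Iglc1, Iglc3 and the main Iglc2 locus were listed at 0 there. On the annotated length of Iglc2 the sum would be about 0.2 of a read, but the length of the second locus is not known. The share of 0.129% therefore rests on that second locus alone, at a level near 0. The shares count RNA, not cells.

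The make-up of the lambda RNA differed between the cell types as well. Iglc1 took 47.2% and 70.7% of the lambda sum in batches 1 and 2 of Ifnar1KO-labelled GC libraries and 54.0% and 52.8% in Sle1b GC, against 28.4% and 36.0% in Ifnar1KO-labelled non-GC and 26.5% and 34.4% in Sle1b non-GC. Iglc3 was correspondingly above Iglc1 in all 4 non-GC libraries and below it in all 4 GC libraries of these batches, with an Iglc1 to Iglc3 ratio of 1.26 and 2.94 in Ifnar1KO-labelled GC and 1.52 and 1.67 in Sle1b GC, against 0.518 and 0.794 in Ifnar1KO-labelled non-GC and 0.497 and 0.712 in Sle1b non-GC. Batch 3 did not separate in this way: the ratio was 6.27 in its Ifnar1KO-labelled non-GC library and 0.929 in its Sle1b non-GC library, and Iglc3 was listed at 0 in both GC libraries.

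**Figure D3:**
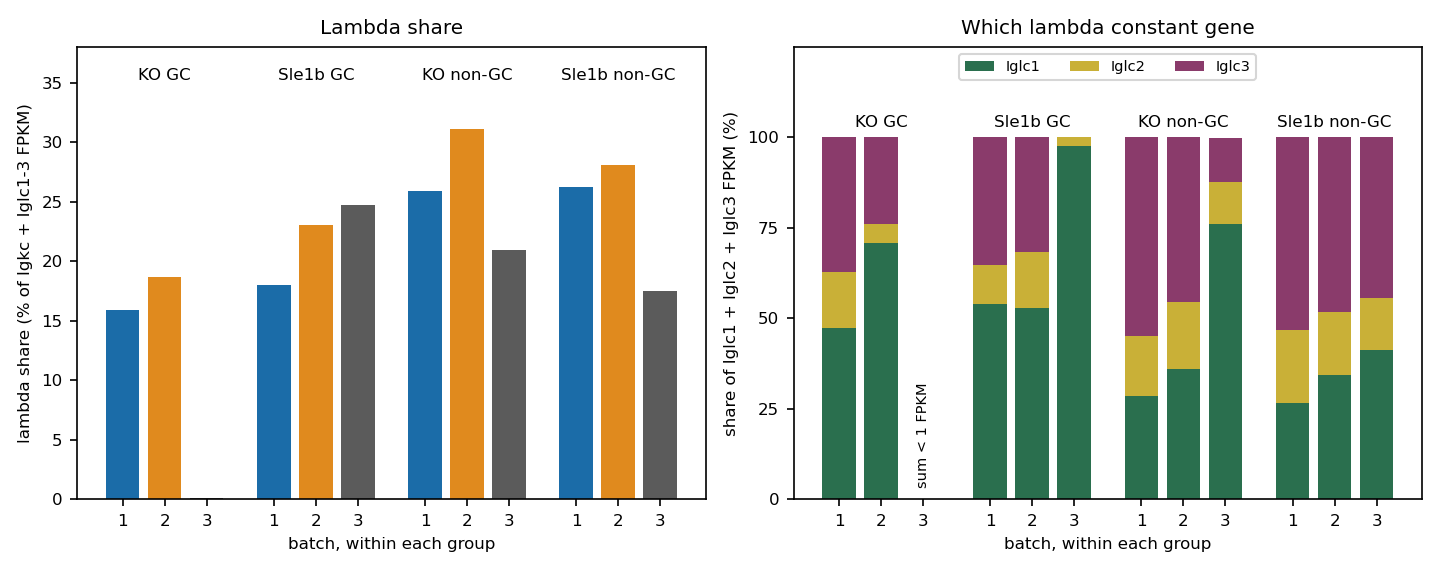
Left, lambda share of light chain constant RNA in percent by group and batch; right, the share of Iglc1, Iglc2 and Iglc3 in their sum in percent. In batches 1 and 2 the GC libraries lie at 15.9% to 23.0% and the non-GC libraries at 25.9% to 31.1% on the left, and Iglc1 takes 47.2% to 70.7% in GC and 26.5% to 36.0% in non-GC on the right; the batch 3 Ifnar1KO GC library has a sum under 1 FPKM and is left blank.

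The genotype comparison was not used to choose the genes and could be tested, with an exception for Iglc4. Its values of 0 in every GC library led to its choice, so its test in GC cells was fixed in advance. These values also enter its interaction test. Because all groups share the same estimate of spread in the fit, they also enter the standard error and p of its non-GC test. Between Ifnar1KO-labelled and Sle1b cells, 0 of 14608 items passed an adjusted p of 0.05 in non-GC cells (0.0%; limma with Benjamini-Hochberg adjustment over all items), 0 in GC cells (0.0%) and 0 for the interaction of genotype and cell type (0.0%). Unadjusted p-values under 0.05 numbered 261, 932 and 533. None of the 8 light chain genes passed in any of the 3 tests, which was fixed in advance for Iglc4 in GC cells. The median of all items lay at -0.26 in GC cells and 0.02 in non-GC cells on the log2 scale, and differences in GC cells are to be read against it.

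In non-GC cells, though its GC values also enter the p through the shared spread, Iglc4 gave the lowest unadjusted p of the 8 genes. It was higher in the Ifnar1KO-labelled library in 3 of 3 batches, by 0.94, 1.90 and 0.72 on the log2 scale, and the fitted difference was 1.19 ± 0.55 (SE, limma adjusted p = 1.0). Of all items tested, 10.8% were higher in Ifnar1KO-labelled non-GC cells in all 3 batches. The exact 95% Poisson intervals of the estimated reads overlapped between the genotypes in batches 1 and 3, with 14.1 to 32.9 FPKM and 33.3 to 69.5 FPKM in Ifnar1KO-labelled libraries against 4.65 to 19.3 FPKM and 18.8 to 46.5 FPKM in Sle1b libraries. In batch 2 they did not, at 22.7 to 55.0 FPKM in the Ifnar1KO-labelled library and 3.57 to 18.3 FPKM in the Sle1b library.

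The other genes had no common direction in non-GC cells. Iglv3 differed by 0.78 ± 1.12, Iglc1 by 0.32 ± 1.09, Iglv2 by -0.08 ± 0.68, Iglc2 by -0.17 ± 0.70, Igkc by -0.21 ± 0.94, Iglv1 by -0.22 ± 0.61 and Iglc3 by -0.64 ± 0.86 (log2 difference ± SE, limma adjusted p = 1.0 for each). Only Iglc2 was lower in Ifnar1KO-labelled cells in all 3 batches (log2 differences of -0.01, -0.16 and -0.33), as were 6.43% of all items. Each of these differences is smaller than its standard error.

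In GC cells the lowest p belonged to Iglv2, which was lower in Ifnar1KO-labelled than in Sle1b libraries in 3 of 3 batches. The fitted log2 difference was -1.61 ± 0.68 (SE, limma adjusted p = 0.77). Batch 3 counted as lower on 0 against 0.207 FPKM, about 0.1 of a read on the annotated length of Iglv2. The Ifnar1KO-labelled values of batches 1 and 2 were about 3 reads each. The second Iglv2 locus alone was lower in batch 1, at 0.775 against 1.01 FPKM, but higher in batch 2, at 5.62 against 5.42 FPKM. Iglc1 was lower in 3 of 3 batches too, with log2 differences of -0.67 in batch 1, a value that rounds to 0 in batch 2 and -3.76 in batch 3, where it was listed at 0 in the Ifnar1KO-labelled library. The fit gave -1.48 ± 1.09 (SE, limma adjusted p = 0.815). Of all items tested, 12.7% were lower in all 3 batches and 3.05% were higher in all 3, as was no light chain gene. Iglc2 differed by -0.72 ± 0.70, Iglc3 by -0.43 ± 0.86, Igkc by 0.22 ± 0.94 and Iglv1 by 0.22 ± 0.61, with limma adjusted p-values of 0.851 to 0.976. No fold is given for Iglc4, listed at 0 in both groups, or for Iglv3, listed at 0 in all Ifnar1KO-labelled GC libraries (limma adjusted p = 0.789).

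The test of whether the genotype difference itself differed between GC and non-GC cells gave its lowest p for Iglv3 (limma adjusted p = 0.994). The direction of Iglv3 was opposite in the 2 cell types in batch 1. In batch 2 it was listed as opposite, but a lower value was not detectable in GC cells. The authors' deposited tables, which compare 1 library with 1 other, called none of the 10 light chain loci significant in any of the 17 tables, with a lowest q-value of 0.0968 among the tests they made.

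**Figure D4:**
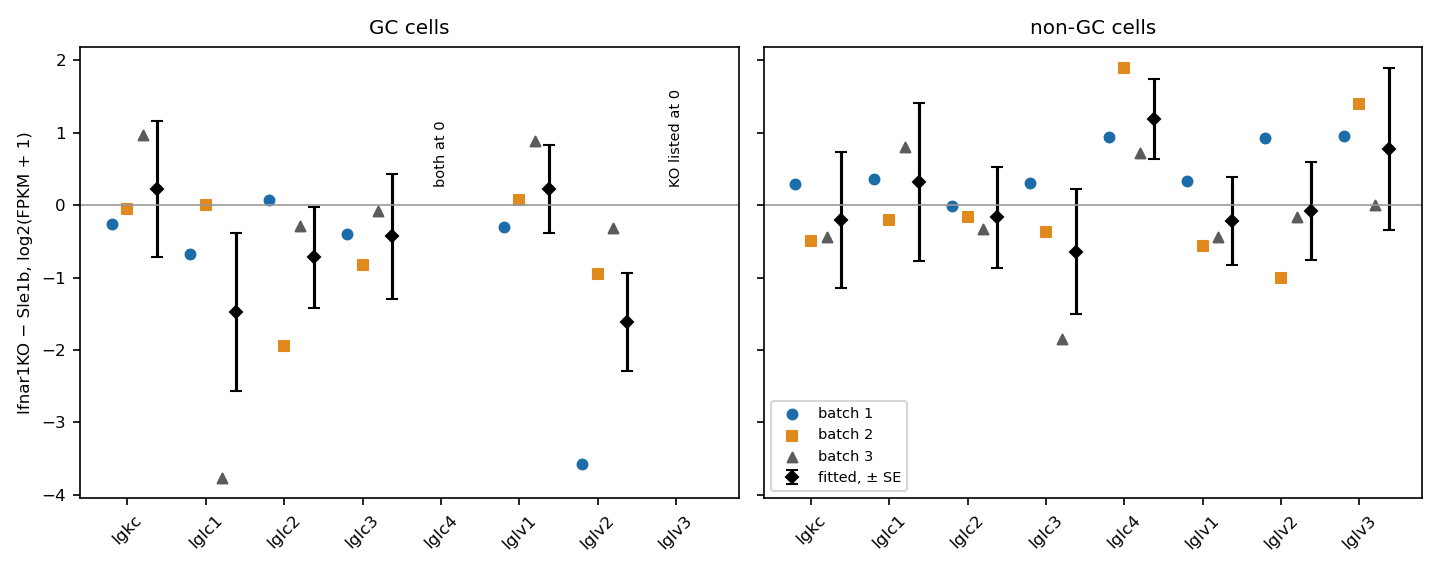
Log2 difference of Ifnar1KO-labelled from Sle1b libraries, on log2(FPKM + 1), for each gene in GC cells (left) and non-GC cells (right); coloured points are the batches and black diamonds the fitted value with its standard error. Iglc4 is above 0 in all 3 batches of non-GC cells with a fitted value of 1.19, and genes listed at 0 in a whole group have no point in GC cells.

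Genes with which the light chain works were read from lists chosen with earlier results known. Of 10 joining segments, Igkj1 to Igkj4, Iglj1, Iglj3, Iglj3p and Iglj4 were listed at 0 in all 12 libraries, Iglj2 shares the main locus of Iglc2, and Igkj5 was at 53.3, 77.1 and 3.93 FPKM in Ifnar1KO-labelled GC, 31.1, 154 and 0.604 FPKM in Sle1b GC, 113, 130 and 7.28 FPKM in Ifnar1KO-labelled non-GC and 67.8, 103 and 0.986 FPKM in Sle1b non-GC libraries. In non-GC cells Igkj5 was higher in Ifnar1KO-labelled libraries in 3 of 3 batches (log2 difference 1.03 ± 0.61, limma adjusted p = 1.0). Of 7 genes of the surrogate light chain and of recombination, only Vpreb3, which binds newly made light chains, passed the filter on low values. Vpreb3 was at 13.8, 5.71 and 0 FPKM in Ifnar1KO-labelled non-GC libraries against 24.5, 15.4 and 23.8 FPKM in Sle1b non-GC libraries (log2 difference -2.21 ± 1.01, limma adjusted p = 1.0).

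Of 4 items for receptor partners, 3 had a lower GC than non-GC value in all 3 batches in both genotypes, as did 19.2% of all items in Ifnar1KO-labelled and 14.2% in Sle1b libraries. The median log2 difference was -1.09 over the 4 items and -0.40 over all items in Ifnar1KO-labelled libraries, and -0.89 and -0.11 in Sle1b libraries. The other item, the joining chain gene Igj, had differences above 0, of 1.88 ± 0.87 in Ifnar1KO-labelled and 2.12 ± 0.87 in Sle1b libraries (log2 ± SE). The heavy chain item of Ighm and Ighd was at 1348, 2390 and 119 FPKM in Ifnar1KO-labelled GC, 1801, 1732 and 133 FPKM in Sle1b GC, 2392, 2740 and 473 FPKM in Ifnar1KO-labelled non-GC and 2236, 3654 and 566 FPKM in Sle1b non-GC. Cd79b, a signalling chain of the receptor, differed between GC and non-GC by -1.32 ± 0.66 in Ifnar1KO-labelled and -2.20 ± 0.66 in Sle1b libraries (log2 ± SE).

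Of 13 factors known to act on light chain enhancers, 7 were lower in GC in all 3 batches in Ifnar1KO-labelled libraries (19.2% of all items) and 8 in Sle1b libraries (14.2% of all items). The median log2 difference was -1.05 over the factors and -0.40 over all items in Ifnar1KO-labelled libraries, and -0.73 and -0.11 in Sle1b libraries. Ikzf3 and Pax5, the factors with the highest mean log2 level, differed by -1.38 ± 0.68 and -1.43 ± 0.80 in Ifnar1KO-labelled and by -0.84 ± 0.68 and -1.23 ± 0.80 in Sle1b libraries (log2 ± SE). Between the genotypes the median over these factors was -0.22 in GC cells and 0.16 in non-GC cells, beside -0.26 and 0.02 over all items, and no factor passed the test.

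Plasma cells hold far more light chain RNA than other B cells, so their markers are set beside these levels. The summed level of 11 plasma cell items was 118, 223 and 4.08 FPKM in Ifnar1KO-labelled GC and 187, 206 and 18 FPKM in Sle1b GC libraries. In non-GC libraries it was 99.6, 122 and 14.2 FPKM in those labelled Ifnar1KO and 89.8, 134 and 11.5 FPKM in Sle1b. Of the list, 2 items, Irf4 and Slamf7, have its highest mean log2 levels and are also made by other B cells. Of the 10 plasma cell items that passed the filter on low values, 6 had a fitted GC difference above 0 and 4 below 0 in each genotype. The items above 0 were Igj, Derl3, Prdm1, Creld2, Mzb1 and Slamf7. They lay at 1.88, 1.28, 1.19, 0.81, 0.60 and 0.44 in Ifnar1KO-labelled libraries. In Sle1b libraries they lay at 2.12, 0.14, 1.30, 0.75, 0.39 and 1.58. Irf4, Xbp1, Sdc1 and Fkbp11 lay below 0, at -1.14, -0.95, -0.83 and -0.06 in Ifnar1KO-labelled and -0.78, -0.03, -0.03 and -0.80 in Sle1b libraries. The median was 0.52 over the 10 items and -0.40 over all items in Ifnar1KO-labelled libraries, and 0.27 and -0.11 in Sle1b libraries. Tnfrsf17 was listed at 0 in 11 of the 12 libraries and Igj was at 14.0, 21.1 and 0 FPKM in Ifnar1KO-labelled GC and 27.0, 48.3 and 0 FPKM in Sle1b GC, against 4.64, 0.191 and 0 FPKM in Ifnar1KO-labelled non-GC and 5.66, 1.51 and 0 FPKM in Sle1b non-GC. Igj was higher in GC in batches 1 and 2 and listed at 0 throughout batch 3. Summed markers of T cells reached 114 FPKM, of myeloid cells 166 FPKM, of plasmacytoid dendritic cells 214 FPKM and of erythroid cells and platelets 97.9 FPKM in the highest library of each. The T cell sum, in Sle1b non-GC batch 2, held 77.6 FPKM of Cd2 and 19.3 FPKM of Lck, with Cd3e at 4.03 FPKM. The plasmacytoid sum, in Ifnar1KO-labelled non-GC batch 1, held 166 FPKM of Ly6d and 30.5 FPKM of Tcf4, with Siglech at 7.17 FPKM. These 2 sums thus rested mostly on 1 gene each. In the batch 3 GC libraries the T cell sum was above the B cell sum. It was 75.8 against 19.8 FPKM in Sle1b, with 32.8 FPKM of Lck and 32.5 FPKM of Cd4. In the Ifnar1KO-labelled library it was 30.2 against 22.1 FPKM, with 19.6 FPKM of Cd3d. In the batch 3 non-GC libraries it was below, at 9.28 against 204 FPKM in Sle1b and 9.97 against 167 FPKM in Ifnar1KO. The myeloid and erythroid highs both lay in Sle1b GC batch 1, against 16.1 and 26.4 FPKM in Ifnar1KO-labelled GC batch 1. The myeloid sum held 70.0 FPKM of S100a9 and 60.4 FPKM of S100a8, and the erythroid sum 38.6 FPKM of Hbb-bs. The same Sle1b library held the highest GC values of Iglv2 and Iglv3, at 48.3 and 36.0 FPKM. The part of these cell types in the light chain levels was not tested.

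Across the 12 libraries, after subtraction of each batch mean, the genes most like Iglc4 were Ankrd44 (Pearson r = 0.975), 1700029J07Rik (r = 0.968) and Cd55 (r = 0.966). Iglc2 was most like the ribosomal protein genes Rpl39 (r = 0.991) and Rpl27 (r = 0.975), and Iglc3 like Rps12, Tpt1 and Bank1 (r = 0.988, 0.987 and 0.981). Igkc was most like Npm1, Actb and Fli1 (r = 0.981, 0.98 and 0.972), but over the 8 libraries of batches 1 and 2 these fell to 0.428, 0.61 and 0.606. Iglc1 was most like Olfr126, Gm19136 and Olfr303 (r = 0.99, 0.99 and 0.989), which did not vary in batches 1 and 2. Iglv1 was most like Bloc1s6 (r = 0.97), Iglv2 like Acsl4 (r = 0.949) and Iglv3 like Gm26982 (r = 0.976). Among the light chain genes, Iglc2 and Iglc3 were the most alike (r = 0.96), and Iglv1 and Iglv2 had r = 0.581. The part of shared reads in this was not tested. These values describe libraries that share batch, depth and sort, and carry no test.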

How the data were processed

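The deposited tables held, for 1 library against 1 other of the same batch, the FPKM that the authors computed with Cuffdiff per locus. They also held a p-value and a q-value of the authors for each locus. The submitters' processing notes name TopHat2 2.0.9, Bowtie2 2.1.0, Cufflinks 2.2.1 and CASAVA, and the build GRCm38. The 17 tables used covered 12 libraries, and the batch number is the replicate number. One table of batch 1, Sle1b GC against non-GC, was not used here. Loci with 1 symbol were summed, symbols that share a locus were kept as 1 item, and 9 failed items were left out. Within a library, tables differed by 1 scale factor for 99.98% or more of loci, and levels in FPKM were joined by it. Tests used log2(FPKM + 1), joined per item by least squares, for 14608 items with at least 1 FPKM in at least 3 libraries: limma 3.58.1 in R 4.3.3, variance trend, batch as a replicate block, 6 residual degrees of freedom, two-sided, Benjamini-Hochberg adjustment, threshold 0.05. The block rests on the batches within which the authors' tables pair libraries. An exact 0 may come from an estimate that failed and is written as listed at 0; all light chain loci had the status OK or NOTEST.

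Total counts are not given in the sources used here. The FPKM worth of 1 read came from unnamed loci within 5 bases of a gene's annotated length, in libraries where at least 80% of values up to 5.5 reads lay within 0.15 of a whole number; intervals and limits (3 reads) cover counting error only. Sequences, coordinates and strands were read from GENCODE M21 (GRCm38), and identities from global alignments. The read length is not given in the sources used here, so stretches of 50 bases stand in for it. The fit was tested on simulated data. The 8 genes, the gene lists, the markers and the tests were chosen with earlier results of these data known. Named genes were the 8 genes and the 2 items of each list with the highest mean log2 level. By the same rule, any item past the threshold and the 3 items most like each gene were named. Igj, Tnfrsf17, Xbp1, Sdc1, Fkbp11, Prdm1, Derl3, Creld2, Mzb1, Cd3d, Cd3e, Cd4, S100a8, S100a9, Siglech and the joining segments listed at 0 fall outside that rule. They were named after their values were seen. Some items that this rule names are not reported here.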

Additional observations from a re-analysis of the deposited data

How the results depend on the processing

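Alternatives were no filter on low values, a pseudocount of 0.1, no replicate block, the mean over tables, no variance trend, leaving out each library or batch, and batches 1 and 2 with the filter redone; joining by 1 scale factor was added after the data were seen. None of the 8 light chain genes passed the threshold for genotype or interaction under any of them. For Iglc4 in GC cells this was fixed by its values of 0. Dropping the replicate block changed no call: it gave 1.19 for Iglc4 in non-GC cells and 0 changed items in each test. In GC cells, batches 1 and 2 with the filter redone gave 1 changed item (Gm28900, named after its value was seen), against 0 in the same libraries with the filter kept, and turned Igkc to -0.16 and Iglv1 to -0.11; the cause was not tested. Leaving out 1 library or batch gave 0 to 1 changed items in GC cells, in non-GC cells and for the interaction; the 1 item was 4930429P21Rik without the Ifnar1KO-labelled GC library of batch 2, 9330111N05Rik (also for the interaction) without the Sle1b GC library of batch 2, Gm28900 without that of batch 3 and, in non-GC cells, Gm22692 without the Sle1b library of batch 2.

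With 1 library or batch left out, the log2 difference of Ifnar1KO-labelled from Sle1b in GC cells ranged from -0.77 to 0.77 for Igkc, -2.45 to 0.27 for Iglc1, -1.39 to -0.11 for Iglc2, -1.32 to 0.22 for Iglc3, -0.42 to 0.65 for Iglv1 and -2.26 to -0.64 for Iglv2. In non-GC cells it ranged from -0.88 to 0.61 for Igkc, -0.83 to 1.14 for Iglc1, -0.64 to 0.42 for Iglc2, -1.37 to 0.54 for Iglc3, 0.83 to 1.60 for Iglc4, -0.67 to 0.27 for Iglv1, -0.58 to 0.44 for Iglv2 and -0.14 to 1.96 for Iglv3. Iglc4 (non-GC), Iglc2 and Iglv2 (GC) thus kept their sign, and the other 11 did not.

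For GC against non-GC, the differences of Iglc2 and Iglc3 stayed between -3.79 and -1.32 with 1 library or batch left out. Counting Iglc4 and the variable genes as lambda gave median shares of 16.6% in Ifnar1KO-labelled and 23.9% in Sle1b GC, and 29.3% in Ifnar1KO-labelled and 28.8% in Sle1b non-GC libraries. In batch 3 alone the Sle1b share was higher in GC, at 25.5% against 20.4% in non-GC. The Ifnar1KO-labelled share of batch 3 was 2.05% in GC and 26.2% in non-GC. Depth limits Iglc4, which about 7 to 31 reads carry in non-GC libraries. It also limits the variable genes in batch 3, where about 2 reads or fewer carry each if the annotated lengths hold.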
